A study of Mus musculus with 12 samples.

Results

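The comparison was between irradiated tumors of Sirpα-KO (Sirpα-/-) mice and irradiated tumors of wild-type (WT) mice. It used 6 of 12 samples, 3 per genotype, paired by the tumor line that both mice carried: MC38, a colorectal cancer line, and Pan02 and KPC, pancreatic ductal adenocarcinoma lines. Of the 561 genes measured, 241 had a mean of at least 100 normalized counts over these 6 samples and are described first, apart from the 320 genes below it. All mice were C57BL6, aged 6 to 8 weeks according to the labels. Tumors of 250 to 300 mm3 received 1 dose of 8 Gy X-rays (IR), while the label of the growth protocol has a size above 200 mm3. They were taken 12 h and 18 h later from 2 mice each, and the RNA of these 4 mice was pooled into 1 sample. The background was a pair of pooled samples per tumor line from WT and Sirpα-/- mice whose tumors had not been irradiated. The receptor was lost from the whole mouse and not from macrophages alone, and both genotypes were engrafted with the same tumor lines.

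SIRPα is an inhibitory receptor of myeloid cells that binds CD47 on other cells and restrains phagocytosis by macrophages. Irradiation damages tumor cells, and nucleic acids from damaged cells can be sensed by myeloid cells, which then make type I interferons. These bind the receptor of IFNAR1 and IFNAR2 on neighboring cells and induce antiviral genes such as Mx1 and Irf7. The question was how transcripts of the tumor and its immune infiltrate differ between the genotypes once tumors have been irradiated. RNA was counted with the nCounter Mouse Immunology Panel, in which barcoded probes bind immune transcripts without amplification. The transcript of Sirpa itself was not analysed here, so the genotype could not be checked from these values.

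The 6 irradiated samples held 93604 to 292410 net counts, the lowest number being that of Sirpα-/- Pan02 tumors. Summed over 6 markers, macrophage values lay between 2066 and 7400 normalized counts, and summed over 4 markers, B cell values lay between 13.5 and 275.5. Genotypes differed at the low end of the scale. The 20th percentile of all genes was 20.5 (MC38), 49.5 (Pan02) and 17.8 (KPC) in irradiated Sirpα-/- tumors and 5.27, 4.07 and 3.53 in irradiated WT tumors. The part of this shift in any single result was not tested. In whole tumors, fewer cells of a type and less RNA per cell cannot be told apart. The 3 tumor models stood as replicates, so p-values measure the spread between pooled samples of different tumor lines and not between mice.

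Among the 241 genes, an interferon gene, an interferon-induced gene and a TNF receptor family gene rose in irradiated Sirpα-/- tumors, and genes that fell included those of a lysosomal protease and a tetraspanin. Ifna1, Tnfrsf11a and Mx1 were higher, 3 of 241 genes (1.24%), and 3 genes, among them Ctsc and Cd81, were lower (1.24%), at an adjusted p under 0.05 in limma. The fit took log2(normalized count + 10), a scale that understates the change of low genes, and p-values were adjusted over all 461 genes with a value of at least 50 in any sample. Over those 461 genes 73 (15.8%) were higher, 70 of them with a mean below 100, and 3 (0.651%) were lower. At an unadjusted p under 0.05, 9 of the 241 genes were higher and 16 lower. Scaling the samples by reference genes, or by their median ratio, left 3 genes higher and 1 lower among the 241. Without the KPC tumors none of the 6 genes passed.

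Ifna1 encodes an interferon-α, a secreted type I interferon. It was at 195 normalized counts in Sirpα-/- MC38 tumors, 907 in Pan02 and 303 in KPC. In irradiated WT tumors it was at 9.78 in MC38, 3.25 in Pan02 and 9.07 in KPC, where the Pan02 value stands for 4 net counts. The groups did not overlap, and every Sirpα-/- sample was far above every WT sample. The fitted difference was 4.51 on the log2 scale (standard error 0.65, adjusted p = 0.00379 in limma, higher in 3 of 3 tumor models), the largest of the 241 genes. Without IR Ifna1 was at 56.5 in Sirpα-/- MC38 tumors and at most 6.48 in the other 5 samples, so MC38 tumors of Sirpα-/- mice held the one raised value outside the irradiated group. The sources used here do not give the sequence of its probe, and with 13 Ifna genes and pseudogenes in the mouse reference, which members it counts is uncertain. Ifna1 reached a mean of 100 through the Sirpα-/- samples alone, with a WT mean of 7.37, as did Tnfrsf11a with a WT mean of 33.3. Genes that enter in this way had to differ. Every irradiated WT value of Ifna1 and Tnfrsf11a lay under 50, at the low end where most genes were higher in Sirpα-/- tumors. The part of that shift in their calls was not tested. Of the 241 genes 10 had a WT mean under 100 and 6 a Sirpα-/- mean under 100, and among the other 225 genes 1 was higher (Mx1) and 3 were lower. The 10 genes also included Il1rl1, Irak2, Abcb1a, Syk, Cd14, Cd36 and Cxcl12, which are described below.

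Mx1, an interferon-induced GTPase with antiviral activity, was at 673 normalized counts in Sirpα-/- MC38 tumors, 1432 in Pan02 and 539 in KPC after IR. In WT tumors the values were 442, 146 and 132. The lowest Sirpα-/- value lay above the highest WT value, although the ratio of (count + 10) within MC38 was only 1.51-fold, against 9.22-fold in Pan02 and 3.85-fold in KPC. The fitted difference was 1.92 on the log2 scale (standard error 0.51, adjusted p = 0.0264 in limma), and without Pan02 it was 1.27 with adjusted p = 0.321. Without IR the values were 222 against 165 in MC38, 63.3 against 158 in Pan02 and 25.9 against 26.6 in KPC (Sirpα-/- against WT).

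Tnfrsf11a encodes RANK, the receptor of the TNF family cytokine RANKL, known for osteoclast formation and for dendritic cell survival. It was at 165 (MC38), 439 (Pan02) and 142 (KPC) normalized counts in irradiated Sirpα-/- tumors, and at 21.8, 44.8 and 33.2 in irradiated WT tumors. Within each model the ratio of (count + 10) was 5.49-fold, 8.19-fold and 3.5-fold, and the groups did not overlap. The fitted difference was 2.43 on the log2 scale (standard error 0.43, adjusted p = 0.00512 in limma). Without IR the Sirpα-/- values were 33.9, 13.7 and 6.48, below the WT value in Pan02 and KPC.

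**Figure D1:**
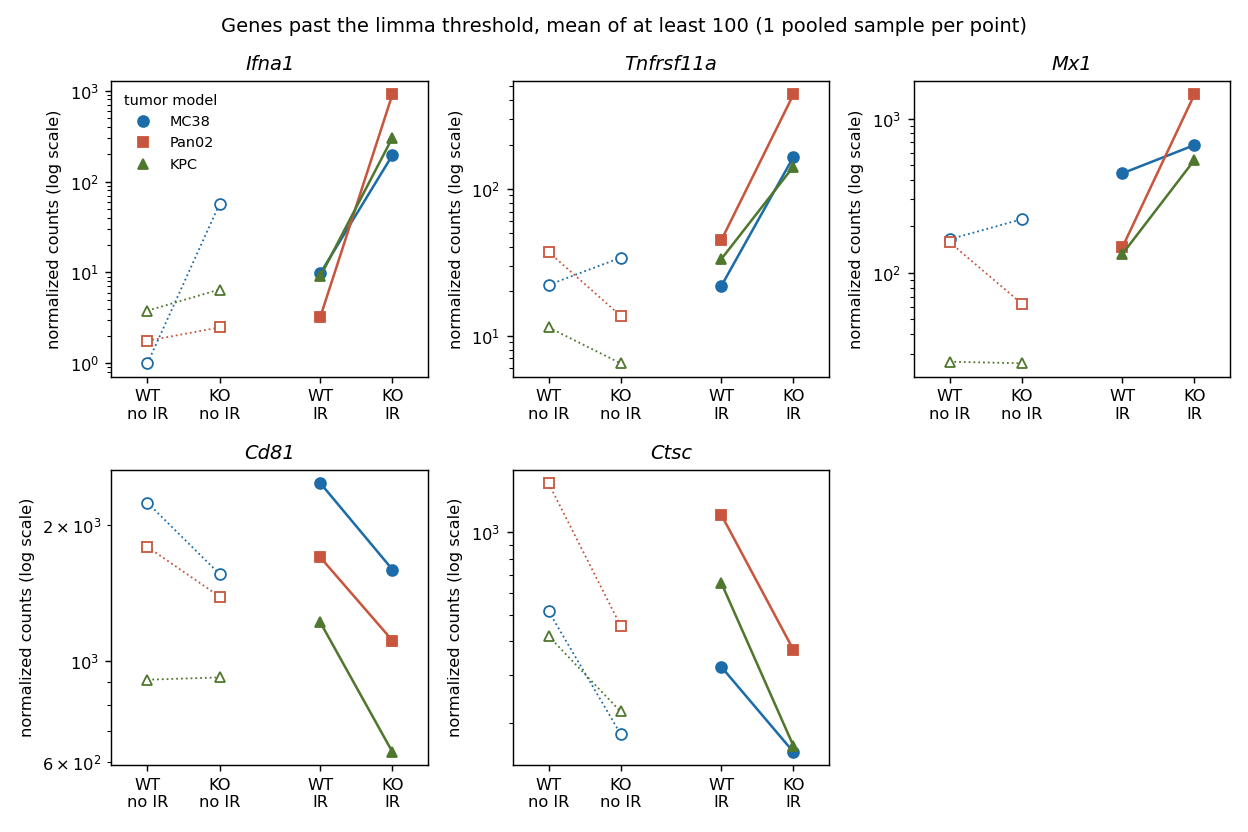
Normalized counts (log scale) of 5 of the 6 genes past the limma threshold in all 12 samples, with WT and Sirpα-/- (KO) samples of 1 tumor model joined by a line, open symbols without IR and filled symbols after 8 Gy. Ifna1, Tnfrsf11a and Mx1 separate the irradiated groups, while Ctsc is lower in Sirpα-/- tumors with and without IR.

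Ctsc encodes cathepsin C, the lysosomal dipeptidyl peptidase that activates granzymes and neutrophil serine proteases. In irradiated Sirpα-/- tumors it was at 157 (MC38), 371 (Pan02) and 165 (KPC) normalized counts, while WT tumors held 321, 1159 and 652. Within each model the Sirpα-/- value was the lower one, by 1.99-fold, 3.07-fold and 3.79-fold of (count + 10), although the 371 of Pan02 lay above the 321 of WT MC38 tumors. The fitted difference was −1.51 on the log2 scale (standard error 0.29, adjusted p = 0.00712 in limma). Ctsc stood lower without IR as well, at 182 against 515, 455 against 1516 and 220.5 against 417, a log2 difference of −1.35 that did not pass the test (adjusted p = 0.276 in limma).

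Cd81, a tetraspanin of the cell surface that forms part of the B cell co-receptor, was at 1592, 1110.4 and 631 normalized counts in irradiated Sirpα-/- MC38, Pan02 and KPC tumors. The WT values were 2468, 1693 and 1217. The groups overlapped across models, but the log2 ratios within them were close to each other, at −0.63, −0.60 and −0.94 (fitted −0.72, standard error 0.21, adjusted p = 0.0412 in limma). The call was close to the threshold and was lost with scaling by reference genes, at adjusted p = 0.112 in limma.

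Ifna1, Irf7, S100a8 and S100a9 were higher in Sirpα-/- tumors of every model, and the 250 bases before the start of each are shown from RefSeq on GRCm38.p6. Of the deposited gene symbols 545 were current in that reference, 14 were older names and 2 did not match. Sequences run from 5′ to 3′ with motif matches in capitals, after a search on both strands for GAAANNGAAA, a repeat bound by interferon regulatory factors, for TGANTCA, the AP-1 motif, and for TATAAA, the TATA box.
Ifna1, chr4:88849837-88850086, plus strand: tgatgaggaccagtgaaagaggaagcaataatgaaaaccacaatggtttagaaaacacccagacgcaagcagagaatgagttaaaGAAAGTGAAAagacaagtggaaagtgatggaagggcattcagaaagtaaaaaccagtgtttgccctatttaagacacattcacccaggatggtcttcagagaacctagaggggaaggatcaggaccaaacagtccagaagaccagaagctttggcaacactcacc
Irf7, chr7:141266425-141266674, minus strand: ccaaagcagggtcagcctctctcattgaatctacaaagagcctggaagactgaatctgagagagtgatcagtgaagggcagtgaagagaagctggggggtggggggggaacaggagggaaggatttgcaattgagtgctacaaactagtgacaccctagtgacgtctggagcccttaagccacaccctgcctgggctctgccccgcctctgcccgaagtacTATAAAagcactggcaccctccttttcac
S100a8, chr3:90668821-90669070, plus strand: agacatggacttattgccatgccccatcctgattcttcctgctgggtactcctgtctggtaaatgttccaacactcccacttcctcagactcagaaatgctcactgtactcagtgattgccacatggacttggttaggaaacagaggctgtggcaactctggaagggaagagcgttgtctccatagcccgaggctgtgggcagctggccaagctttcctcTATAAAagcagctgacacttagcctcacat
S100a9, chr3:90695722-90695971, minus strand: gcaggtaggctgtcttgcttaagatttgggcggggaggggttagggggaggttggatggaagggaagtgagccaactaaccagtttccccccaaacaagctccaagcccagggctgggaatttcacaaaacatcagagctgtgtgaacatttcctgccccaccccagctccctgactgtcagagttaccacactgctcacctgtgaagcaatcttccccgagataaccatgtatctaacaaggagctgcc
Counted from 1 at the 5′ end, the Ifna1 promoter held GAAANNGAAA at position 86, as did 2.98% of 32851 promoters cut to the same length. TATAAA was found at position 222 before Irf7 and 221 before S100a8, and in 12.4% of all promoters. TGANTCA was in none of these 4 windows and in 6.75% of all, and no match overlapped another. A match describes the letters and not a bound site.

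Among the 241 genes, Ifna1 and Mx1 were the only genes called on the lists of interferons, their receptors and their targets. Of 12 interferon-stimulated genes, all with a mean of at least 100, only Mx1 was called. As deposited, 3 were higher and 4 lower in 3 of 3 tumor models, while none was lower in 3 of 3 after scaling by the median ratio. Their median log2 ratio was 0.18 in MC38, −0.01 in Pan02 and −0.31 in KPC, beside −0.04, −0.17 and −0.26 over all 241 genes. Irf7, the transcription factor that amplifies interferon-α production, was at 771.6 against 184 in MC38, 298 against 238 in Pan02 and 207 against 150.1 in KPC. Its groups overlapped, and the MC38 ratio of 4.02-fold stood apart from 1.25-fold and 1.35-fold (fitted log2 difference 0.92, adjusted p = 0.344 in limma). Tmem173, which encodes the DNA-sensing adaptor STING, had log2 ratios of 0.28, 0.31 and 0.10. Ifih1, which encodes the RNA sensor MDA5, had 0.63, 0.03 and −1.50, and Ifitm1, an antiviral membrane protein, −1.25, 1.23 and 0.89, so that neither had 1 direction.

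Both chains of the type I interferon receptor were at the lower value in Sirpα-/- tumors of all 3 models. Ifnar1 was at 296 against 457 in MC38, 238 against 387 in Pan02 and 122 against 212 in KPC (log2 fold change −0.68, standard error 0.28, adjusted p = 0.131 in limma). It was lower in 3 of 3 models without IR as well, with a log2 fold change of −0.39. Ifnar2 was at 239, 189.7 and 81.8 against 261, 209.9 and 141 (adjusted p = 0.604 in limma), and for it the direction did not hold in every model when samples were scaled by reference genes. Ifnb1 and Ifna2, 2 further type I interferons, lay under a mean of 100 and were called higher, as were 70 of the 220 tested genes of that class (31.8%). Ifnb1 was at 24.0, 187 and 51.7 against 1.5, 4.07 and 3.53 and Ifna2 at 22.2, 95.5 and 33.8 against 1.5, 1.0 and 1.51, where no WT value exceeded 7 net counts.

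Genes in the same direction in all 3 tumor models were counted next. Of the 241 genes 30 (12.4%) were higher and 76 (31.5%) lower in 3 of 3, and this split depended on the scaling, with 40 higher and 42 lower after scaling by reference genes and 41 and 42 by the median ratio. Those scalings moved the median log2 ratio of the 241 genes in Pan02 from −0.17 to 0.10 and −0.05 and in KPC from −0.26 to −0.10 and 0.03, so small differences carry no direction of their own. The values of the 2 groups did not overlap for 4 genes that were higher in Sirpα-/- tumors (1.66%), Ifna1, Tnfrsf11a, Mx1 and Nfil3, and for none that was lower. Sirpα-/- tumors after IR held the highest value of the 4 samples of their tumor model in all 3 models for 21 genes (8.71%).

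The higher genes with the largest ratios in every model, beside the 3 that were called, included a transcription factor, a cytokine receptor and a kinase. Nfil3, a transcription factor that NK cell development requires, was at 244, 381 and 217 normalized counts in Sirpα-/- and 95.5, 159 and 95.7 in WT tumors. Its ratios were even, 2.41-fold in MC38, 2.32-fold in Pan02 and 2.14-fold in KPC, although the gene did not pass the test (log2 fold change 1.19, standard error 0.52, adjusted p = 0.162 in limma). Il1rl1, which encodes ST2, the receptor of interleukin-33, was at 90.8, 383 and 183 against 17.3, 168 and 49.9 (log2 fold change 1.57, standard error 0.54, adjusted p = 0.0775 in limma). It passed when only the 6 irradiated samples were fitted (adjusted p = 0.0204 in limma), but it reached a mean of 100 through the Sirpα-/- samples. Its ligand Il33 was at 193, 301 and 186 against 157, 287 and 123, each pair less than 2-fold apart. Irak2, a kinase of interleukin-1 and Toll-like receptor signaling, was at 118, 182 and 80.6 against 54.9, 122 and 46.9. Irak2 also reached a mean of 100 through the Sirpα-/- samples, with a WT mean of 74.6. Of 6 genes of the interleukin-1 family and inflammasome with a mean of at least 100 in both genotypes, which leaves out Il1rl1, 3 were higher in 3 of 3, none was called, and the median log2 fold change was 0.09. Beside this, 10.7% of the 225 genes with such means were higher in 3 of 3, and the median over all 241 genes was −0.14.

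S100a8 and S100a9 encode the subunits of calprotectin, an abundant protein of neutrophils. S100a8 was at 71.2 (MC38), 1386 (Pan02) and 529 (KPC) against 42.9, 801 and 199.5, and S100a9 at 47.2, 1272 and 695 against 24.8, 837 and 258. The KPC ratios of 2.57-fold and 2.62-fold were the largest, and the genes did not pass the test (adjusted p = 0.319 for S100a8 and 0.503 for S100a9 in limma). Both stood higher in Sirpα-/- tumors without IR as well, S100a8 at 907 against 526 in Pan02, for example. Of the other neutrophil markers, which lay below a mean of 100, Cxcr2 was called higher, at 22.2, 95.5 and 39.4 against 5.27, 49.6 and 14.6. Of all tested genes below that mean, 31.8% were called higher. Csf3r, the receptor of G-CSF, was at 54.3, 139 and 44.3 against 27.8, 141 and 41.8 and was not called. The sum of the 4 markers was 195, 2893 and 1308 against 101, 1828 and 514.

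Further genes on this side were Abcb1a, a drug efflux transporter, with log2 ratios of 0.82, 0.96 and 1.32, and Plaur, the urokinase receptor, with 0.78, 0.55 and 1.22. The urokinase gene Plau had smaller ratios, 0.12, 0.21 and 0.41. Cd274, which encodes PD-L1, was at 547 against 378 in MC38, 627 against 396 in Pan02 and 281 against 199 in KPC (log2 fold change 0.55, standard error 0.34, adjusted p = 0.344 in limma). Ptgs2, the inducible cyclooxygenase, was at 159, 1089 and 754 against 80.5, 906 and 198, so that its KPC ratio of 3.67-fold was far above the 1.2-fold of Pan02. Mif, a proinflammatory cytokine, had log2 ratios of 0.58, 0.52 and 0.36. Il1b, which encodes interleukin-1β, was at 93.5 against 27.8 in MC38 and had log2 ratios of 0.08 and 0.14 in the other models. Ikbkap, a subunit of the Elongator complex, had log2 ratios of 0.36, 0.55 and 0.47. None of these genes was called.

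**Figure D2:**
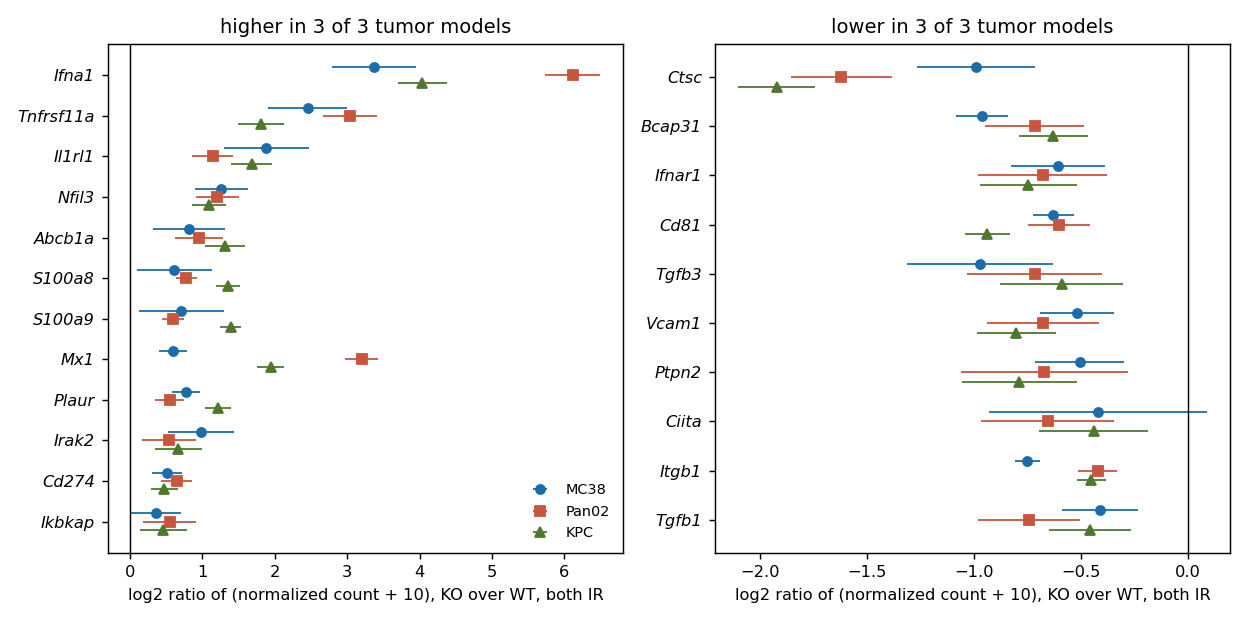
Log2 ratio of (normalized count + 10) of Sirpα-/- (KO) over WT tumors, both irradiated, in each tumor model, for the 12 higher genes and 10 of the 12 lower genes whose smallest ratio of the 3 models was largest, with bars for the 95% counting error only. Ifna1 runs from 3.37 to 6.11 and Nfil3 from 1.10 to 1.27, while on the lower side only Ctsc goes below −1.10.

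On the lower side, Bcap31, a membrane protein of the endoplasmic reticulum, was at 903 against 1769.8 in MC38, 412 against 683 in Pan02 and 270.1 against 424 in KPC (log2 fold change −0.77, standard error 0.27, adjusted p = 0.0824 in limma). Ptpn2, a phosphatase that dampens JAK-STAT signaling, had log2 ratios of −0.51, −0.67 and −0.79, and Itgb1, the integrin β1 chain, of −0.75, −0.42 and −0.45. Vcam1, a vascular adhesion molecule, was at 503, 327 and 195 against 724, 529.7 and 348, and without IR it was at 168 against 411 in MC38, 257 against 524 in Pan02 and 84.3 against 64.5 in KPC, where it was the higher value. Ciita, the transactivator of MHC class II genes, had log2 ratios of −0.42, −0.66 and −0.44. Adjusted p in limma was 0.109 for Ptpn2, 0.227 for Itgb1, 0.344 for Vcam1 and 0.514 for Ciita.

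Of 12 genes of TGF-β signaling and matrix among the 241, none was called, and 7 were lower and none higher in 3 of 3 as deposited, against 6 lower and 1 higher with reference genes. The 12 reference genes of the panel among the 241 also had 7 lower in 3 of 3. The median log2 fold change of the TGF-β and matrix genes was −0.38, beside −0.14 over all 241 genes, and without IR it was −0.12, beside −0.18. Tgfb1, the main cytokine of wound healing and immune suppression, was at 489 against 654 (MC38), 388 against 657 (Pan02) and 195 against 272 (KPC). Its isoform Tgfb3 was at 95.2, 214 and 73.2 against 196, 358 and 115. The receptor chain Tgfbr1 was at 247, 369 and 176 against 309, 628 and 236, and the signal transducer Smad5 had log2 ratios of −0.30, −0.45 and −0.40. Tgfbi, a matrix protein induced by TGF-β, had −0.64, −0.27 and −0.93, of which the Pan02 difference did not hold with reference genes. Tgfb1, Tgfb3 and Tgfbi were also lower in 3 of 3 models without IR, with log2 fold changes of −0.26, −0.67 and −0.59. Fibronectin, encoded by Fn1, was at 1601 against 2796 in MC38 and 7623 against 12396 in Pan02, but at 4258 against 3116 in KPC. Itga6, a laminin receptor chain, was at 420.2 against 209 in KPC and had log2 ratios of 0.19 and −0.02 in the other models.

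Of 10 genes of the interferon-γ axis among the 241, 4 were lower and 1 higher in 3 of 3, beside 31.5% and 12.4% of all 241 genes, and with reference genes 2 were lower and 1 higher. Ifng itself, which encodes interferon-γ and had a mean below 100, was called higher, at 24.9, 197 and 42.5 against 8.27, 18.7 and 8.56 (log2 fold change 1.76, standard error 0.45, adjusted p = 0.0216 in limma). So were 70 of the 220 tested genes with such a mean (31.8%), and the call of Ifng cannot be told apart from that shift. Ifngr1, the ligand-binding chain of the interferon-γ receptor, was at 422 against 1096 in MC38, 277 against 344 in Pan02 and 96.6 against 292 in KPC (log2 fold change −1.05, standard error 0.34, adjusted p = 0.0586 in limma). It was lower in 3 of 3 models without IR as well, with a log2 fold change of −0.54. The kinase Jak1 was at 1005, 588 and 309.5 against 1767, 649 and 539.6, and Stat6, which mediates interleukin-4 signals, at 432, 361 and 174 against 819, 429 and 231. For both, the direction did not hold in Pan02 with scaling by reference genes, which left 1 of 9 JAK-STAT genes lower in 3 of 3 in place of 6. None of the 10 genes of the interferon-γ axis or of the 9 JAK-STAT genes was called. The receptor chain Ifngr2 had log2 ratios of −0.87, −0.40 and 0.24. Targets of interferon-γ had no common direction: Cxcl9 had log2 ratios of −1.71, 0.25 and 0.06, Cxcl10 of −0.15, 0.54 and −0.71 and Irf1 of 0.09, −0.14 and −0.36.

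Median differences over the lists of MHC class I, apoptosis and NF-κB genes were small, while single genes, not all of them reported here, differed more. The 9 class I genes, among them subunits of the proteasome, had median log2 ratios of −0.28, −0.23 and −0.35, and 5 were lower in 3 of 3, but 1 after scaling by reference genes. B2m, the light chain of class I, was at 23441, 19877 and 9332 against 31770.5, 23377 and 11874. Among 8 genes of DNA damage and apoptosis, Cdkn1a, the p53 target that arrests the cell cycle, had log2 ratios of −0.27, −0.23 and 0.28, and Bax, a mediator of mitochondrial apoptosis, of 0.72, −0.42 and −0.14. Of 13 genes on the NF-κB list 2 were higher and 2 lower in 3 of 3 as deposited, and 4 and 2 with reference genes. The higher ones as deposited were Ikbkap, the Elongator subunit named above, and Ikbke, whose direction was mixed with quantile normalization. The lower ones were Nfkb1, at −0.33, −0.42 and −0.75, and Nfkb2, at −0.23, −0.56 and −1.06. Tfrc, the transferrin receptor, was lower in 3 of 3 with its largest difference in KPC, at 249.8 against 771 (adjusted p = 0.184 in limma).

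**Figure D3:**
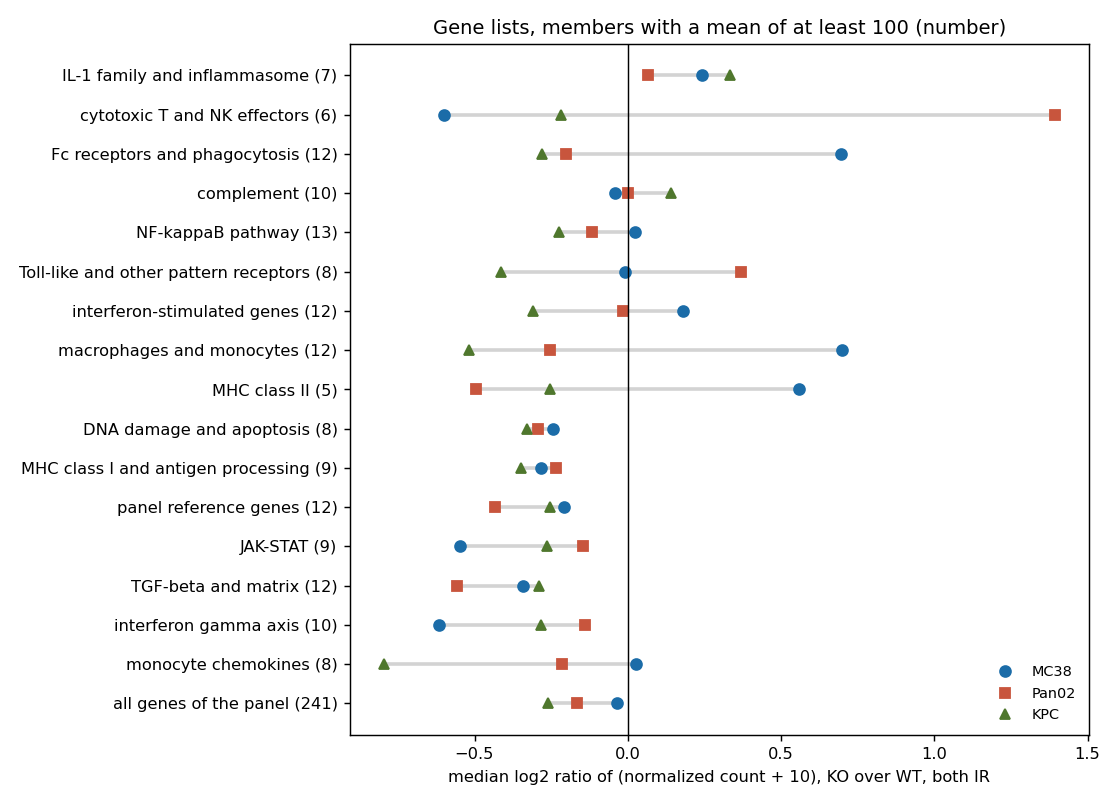
Median log2 ratio of Sirpα-/- (KO) over WT tumors, both irradiated, for each gene list with at least 5 members of a mean of at least 100 (number in parentheses), with 1 symbol per tumor model and the 241 genes at the bottom. As deposited, the medians of macrophage, Fc receptor and MHC class II genes lie above 0 in MC38 alone and those of cytotoxic genes in Pan02 alone, but each of these lists has a median above 0 in a further model under at least 1 other scaling. The medians of TGF-β and matrix, interferon-γ, JAK-STAT, MHC class I, DNA damage and reference genes and of all 241 genes lie below 0 in all 3 models as deposited, which held for the DNA damage list alone under every scaling.

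Most macrophage and monocyte genes, 8 of 12, were higher in Sirpα-/- MC38 tumors, while their direction in Pan02 depended on the scaling. In MC38 the 12 genes of macrophages and monocytes had a median log2 ratio of 0.70, with 5 genes at least 2-fold higher and none lower (7.05% and 5.81% of the 241 genes), while the medians were −0.25 in Pan02 and −0.52 in KPC. With scaling by reference genes these medians were 0.69, 0.02 and −0.35, and by the median ratio 0.74, −0.14 and −0.21. Emr1, which encodes F4/80, was at 876 against 287 in MC38, but at 366 against 504 and 141 against 224 in the pancreatic models. C1qa, a chain of complement C1q that macrophages make, was at 3262, 1840.2 and 846 against 1093, 2193 and 898, and with reference genes its log2 ratios were 1.56, 0.02 and 0.09, so it was not lower in the pancreatic models under that scaling. Cx3cr1, the fractalkine receptor of monocytes and macrophages, was at 123 against 41.4 in MC38 and at 189.7 against 493 (Pan02) and 75.7 against 149 (KPC). Cd14, the LPS co-receptor, ran the other way, at 109 against 149.7 in MC38 and at 224 against 93.6 (Pan02) and 89.8 against 37.3 (KPC). Summed over 6 markers, macrophage values were 7400 against 3833, 5116 against 5936 and 2066 against 2520. With 1 pooled sample per genotype in a model, within-model differences have no test.

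Activating Fc receptors and their signaling chain were also higher in MC38. There, Fcer1g, the common γ chain, was at 819.7 against 375, Fcgr1, the high-affinity IgG receptor, at 901 against 425, and Fcgr3 at 479 against 249. Fcgr1 was at 320.2 against 413 in Pan02 and 118 against 255 in KPC, lower in both with each scaling. Fcgr3, at 521 against 609 and 233 against 291, had a Pan02 log2 ratio of −0.22 that turned to 0.05 with reference genes. Fcer1g, at 748 against 648 and 287 against 317, had a KPC log2 ratio of −0.14 that became 0.03 by reference-gene scaling and 0.17 by median-ratio scaling. Syk, the kinase that these receptors use, was at 191, 272 and 64.6 against 77.5, 159 and 61.5, higher in 3 of 3 but without a call (adjusted p = 0.34 in limma). Cd36, a scavenger receptor, was at 207 against 39.0 in Pan02 and had log2 ratios of −0.04 in MC38 and 0.80 in KPC. The 5 class II genes had median log2 ratios of 0.56 in MC38, −0.49 in Pan02 and −0.25 in KPC, the last of which was 0.05 with the median ratio. Cd74, the invariant chain, was at 4361, 10252 and 3791 against 2200.1, 12963 and 4499.

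In Pan02 the larger differences included genes of cytotoxic lymphocytes. The 6 genes of cytotoxic T and NK cells among the 241 had a median log2 ratio of 1.39 there, and 5 of the 6 were at least 2-fold higher, against 16 (6.64%) of the 241 genes, while 4 of the 241 (1.66%) were 2-fold lower. Gzmb, which encodes granzyme B, was at 233 against 44.8 in Pan02, 177 against 466 in MC38 and 85.5 against 101 in KPC. Prf1, which encodes perforin, was at 144 against 32.5, 240.3 against 378 and 80.0 against 95.2 in the same order. Klrd1, the CD94 chain of NK receptors, was at 332 against 154, 302 against 452 and 100.3 against 117. The higher value of these 3 genes was that of Sirpα-/- tumors in Pan02 and that of WT tumors in MC38. In KPC their log2 ratios were small, at −0.21, −0.23 and −0.21, and turned to 0.07, 0.06 and 0.08 with the median ratio. Gzma, a further granzyme gene, had log2 ratios of 1.31 in Pan02, −0.80 in MC38 and −1.43 in KPC. Its KPC ratio was −1.19 with the median ratio, and its Pan02 ratio turned to −0.37 with quantile normalization. The WT Pan02 values of Gzmb and Prf1 were 55 and 40 net counts. The sum of 5 T cell markers was 603 against 229.5 in Pan02, 303.5 against 159 in MC38 and 145 against 114 in KPC. All of these T cell markers had a mean below 100, and genes of that class had median log2 ratios of 1.24, 0.50 and 0.66 in the same order. The sum of 2 NK cell markers was 401 against 228, 461 against 555 and 125.5 against 175. Klrc1, which encodes NKG2A, was at 342 against 116 in Pan02 and had log2 ratios of 0.13 and 0.03 in MC38 and KPC.

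In KPC 18 of the 241 genes (7.47%) were at least 2-fold lower and 13 (5.39%) higher, and with samples scaled by their median ratio these counts were 12 and 21. Of 8 chemokines and growth factors of monocytes 4 were among the lower. Ccl2, the main attractant of CCR2-bearing monocytes, was at 137 against 1185 normalized counts in KPC, or 8.12-fold lower, the largest difference in that direction among the 241 genes in any model. In MC38 it was at 4889 against 4708 and in Pan02 at 277 against 325. Ccl7, which binds the same receptor, was at 45.5 against 124 in KPC, and Ccr2, the receptor itself, at 42.5 against 117. Ccr2 was also lower in MC38, with a log2 ratio of −0.77, while its Pan02 ratio of −0.07 turned to 0.18 with reference genes. Without IR Ccr2 was lower in 3 of 3 models, with a log2 fold change of −0.37. Ccl5, a chemokine of T cells, was at 60.3 against 239 in KPC but at 1292 against 769 in MC38. Without IR, Ccl2 and Ccl5 were lower in Sirpα-/- tumors in 3 of 3 models, with log2 fold changes of −0.71 and −1.17. Ccl12, another ligand of CCR2, was lower in all 3 models, at 370.2, 180.0 and 111 against 467, 510.1 and 264 (log2 fold change −0.99, standard error 0.35, adjusted p = 0.0824 in limma), and its log2 fold change without IR was −1.35. Ccl8 went the other way, with log2 ratios of 0.14, 0.57 and 0.56.

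Serping1 and Cxcl12 were lower in Sirpα-/- MC38 tumors and higher in those of both pancreatic models. They were picked for their ratios, and the 10 complement genes among the 241 had medians of −0.04, 0.00 and 0.14 as deposited, with 5 higher and 5 lower in MC38. Serping1, the C1 inhibitor, was at 101 against 366 in MC38, 272 against 88.7 in Pan02 and 83.7 against 18.6 in KPC. Cxcl12, a stromal chemokine that binds CXCR4, was at 82.8, 329.9 and 35.1 against 201, 38.2 and 5.04, the last value being 10 net counts. C1s, a protease of the C1 complex, was at 204 against 596 in MC38 and had log2 ratios of 0.17 and 0.49 elsewhere, and C3, the central complement component, was at 157 against 357 with −0.17 and 0.26 elsewhere. Pecam1, a marker of endothelium, had log2 ratios of −1.30, 0.22 and −0.66. Il13ra1, a receptor chain of interleukin-13, was at 420.1 against 1356 in MC38 and within 0.08 on the log2 scale elsewhere. Il7, a cytokine that T cells need for survival, was 2-fold lower in Pan02 alone, with log2 ratios of 0.24, −1.06 and 0.23. Without IR, Serping1 and Cxcl12 were higher in Sirpα-/- tumors of all 3 models, at 144 against 5.04 and 175 against 4.27 in MC38, where the order was opposite after irradiation.

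**Figure D4:**
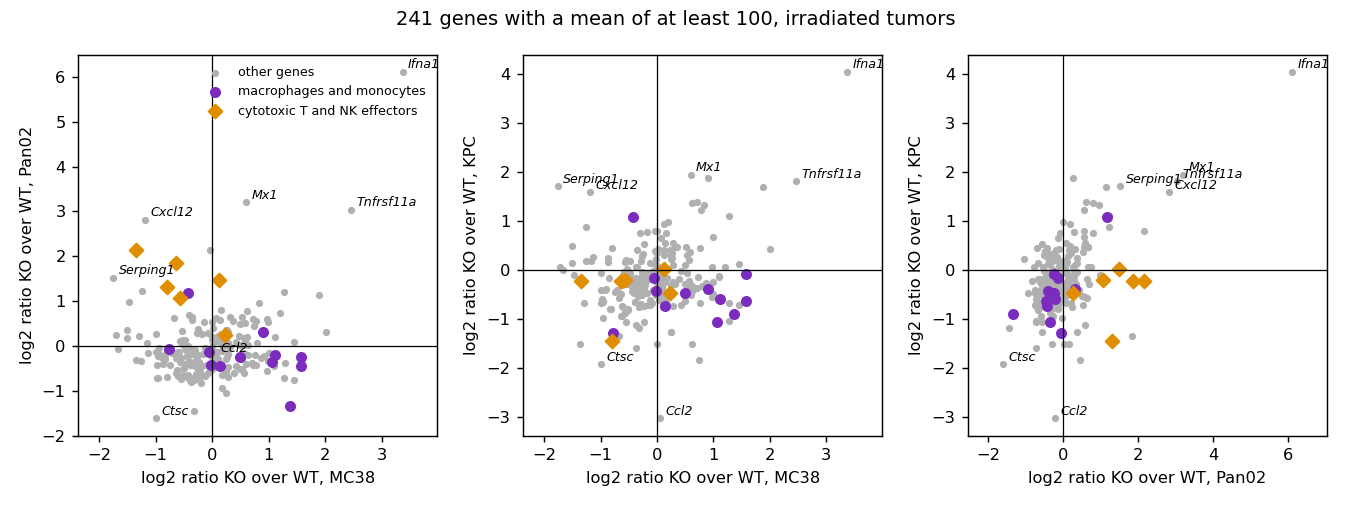
Log2 ratio of Sirpα-/- (KO) over WT tumors in 1 tumor model against that in another, for all 241 genes above the limit of 100, each point being 1 gene. As deposited, 8 of the 12 macrophage and monocyte genes lie above 0 for MC38, 2 for Pan02 (7 with reference genes) and 1 for KPC (3), all 6 cytotoxic genes lie above 0 for Pan02, and Ifna1 is far from 0 on every axis.

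Over the 241 genes, the ratios of the pancreatic models resembled each other more than either resembled MC38. Spearman's rho between log2 ratios was 0.39 for Pan02 and KPC, 0.14 for MC38 and KPC and 0.09 for MC38 and Pan02. Genes are not independent replicates, and the pairs share the panel and the processing, so these values describe the 6 samples only. Pan02 and KPC were both lower for 124 of the 241 genes and both higher for 44. Over the 320 genes of lower mean the same rho was 0.83, 0.45 and 0.42.

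Among the 320 genes with a mean below 100, 220 had a value of at least 50 in any sample and were tested, and 70 of them (31.8%) were called higher and none (0.0%) lower. At an unadjusted p under 0.05 in limma 100 were higher and none lower, and the methods' t-test with Benjamini-Hochberg adjustment called 0 of the 461 genes, or 56 higher at an unadjusted p under 0.05. For 69 of the 70 genes every irradiated WT value was under 50 normalized counts, and 21 had a value of at least 100 in an irradiated Sirpα-/- tumor. The lowest adjusted p values belonged to genes of unlike cells. Il25, an epithelial cytokine, was at 44.5, 97.9 and 43.1 against 2.26, 2.44 and 2.52, and Il28a, an interferon-λ, at 46.3, 117 and 45.5 against 1.5, 1.0 and 6.05. Ctla4, the inhibitory receptor of T cells, was at 72.1, 158 and 52.3 against 9.78, 19.5 and 7.56. Il19 and Il23a, which encode cytokines of the interleukin-10 and interleukin-12 families, and Ltb4r2, a leukotriene receptor, had fitted log2 differences of 2.42, 2.08 and 2.43. Cxcr1, a receptor of neutrophil chemokines, was at 29.4, 76.1 and 30.1 against 2.26, 4.88 and 1.01. The B cell marker Ms4a1 (CD20) was called too, at 25.8, 97.9 and 28.9 against 5.27, 1.0 and 5.04.

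This class moved as a whole. Its median log2 ratio was 0.50 in MC38, 1.24 in Pan02 and 0.66 in KPC, and 188 of 320 genes (58.8%) were higher in 3 of 3 models against 10 (3.12%) lower. The groups did not overlap for 120 genes that were higher in Sirpα-/- tumors (37.5%) and for 1 that was lower (0.312%). At least 2-fold higher were 82 genes in MC38 (25.6%), 191 in Pan02 (59.7%) and 104 in KPC (32.5%), and at least 2-fold lower 14 in MC38 (4.38%) and 1 each in the other models. For 167 genes (52.2%) the irradiated Sirpα-/- sample was the highest of its tumor model in all 3. Sorted by their mean over the 6 samples, genes under 25 had medians of 0.61, 1.78 and 0.84, those from 50 to 100 of 0.20, 0.57 and 0.05, and those of 500 and over of −0.09, −0.23 and −0.29. In the non-irradiated pairs the 320 genes had medians of 0.08, 0.08 and 0.26. When values were brought to a common distribution by quantile normalization, 8 of the 220 genes were called higher. Irradiated Sirpα-/- samples thus differed from WT in most genes of low value at once, and single genes of this class cannot be told apart from that shift. At the limit itself, Il17ra and Fkbp5 lay just inside, with means of 100.39 and 100.44, and Abl1 and Ptpn22 just outside, with 99.31 and 98.92. Il17ra had log2 ratios of −0.02, −0.22 and 0.23.

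**Figure D5:**
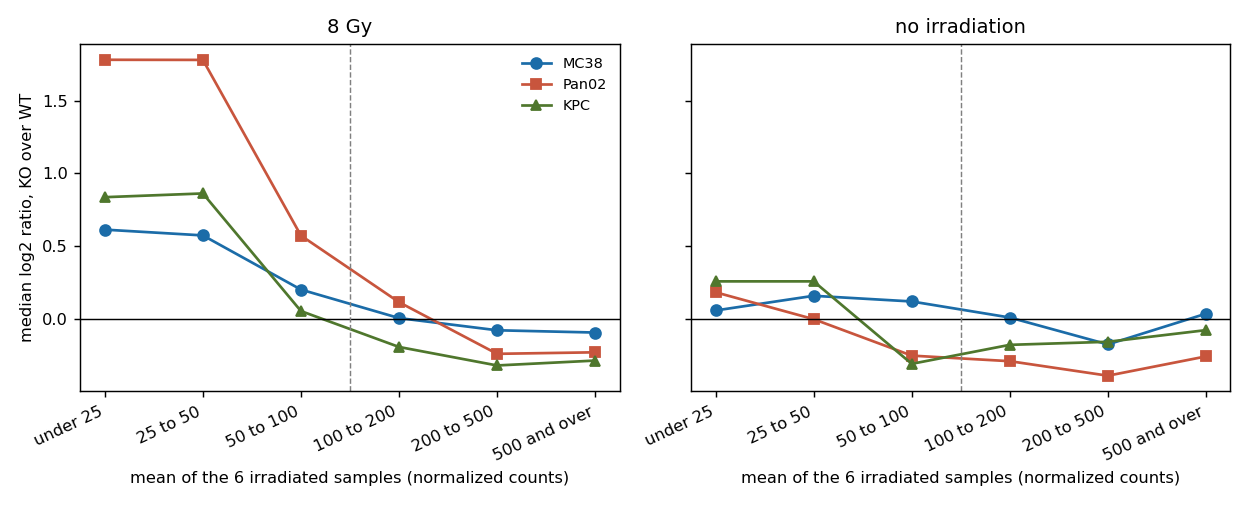
Median log2 ratio of Sirpα-/- (KO) over WT tumors for genes grouped by their mean over the 6 irradiated samples (normalized counts), after 8 Gy on the left and without IR on the right, with the limit of 100 as a dashed line. After IR the medians fall from 0.61, 1.78 and 0.84 for genes under 25 to slightly below 0 above 200, while without IR they stay between −0.39 and 0.26. The 0.26 is that of KPC and equals the ratio of the lowest values of its non-irradiated samples.

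The same comparison in tumors without IR gave the background of the genotype. Among the 241 genes none was called at an adjusted p under 0.05 in limma, with 1 higher and 6 lower at an unadjusted p under 0.05. In 3 of 3 models 28 genes (11.6%) were higher and 84 (34.9%) lower. Of the 30 genes that were higher after IR 11 (36.7%) were higher in 3 of 3 without it, and of the 76 that were lower 36 (47.4%) were lower. Whether the genotype difference itself changed with IR was tested as an interaction, and no gene passed (smallest adjusted p = 0.0769 in limma), while 5 of the 241 genes had a more positive difference after IR at an unadjusted p under 0.05 and none a more negative one. On the log2 scale the interaction was 2.74 (standard error 0.60, adjusted p = 0.0769 in limma) for Tnfrsf11a, 3.53 (standard error 0.93, adjusted p = 0.109 in limma) for Ifna1 and 2.19 (standard error 0.73, adjusted p = 0.134 in limma) for Mx1. For Ctsc it was −0.16 (standard error 0.40, adjusted p = 0.909 in limma). The non-irradiated KPC samples held 12292 and 21576 net counts, the lowest of the series, and without them 8 of the 241 genes were higher and 5 lower after IR, the 6 genes called in the full fit among them.

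Reference genes of the panel were not even between the groups. Of 14 genes, 7 were lower and 2 higher in 3 of 3 irradiated pairs. Gapdh, a glycolytic enzyme, was at 19734, 20653 and 11452 against 17657, 11854 and 6779 (log2 fold change 0.57, standard error 0.19, adjusted p = 0.0673 in limma). Alas1, an enzyme of heme synthesis, was at 103, 137 and 61.5 against 48.9, 61.0 and 38.3. Gusb, a lysosomal enzyme, was at 448, 202 and 114 against 529, 339 and 195, and Rpl19, a ribosomal protein, at 14158, 7715 and 4662 against 16569, 10189.9 and 5935. None of the 14 was called.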

How the data were processed

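RNA of whole tumors was measured in 12 samples, of which 6 entered the comparison and all 12 the fit. The signal values are normalized counts as deposited: the authors processed the counts of the nCounter SPRINT profiler in nSolver 2.6, took off the background seen with 8 negative controls and rescaled each sample by its 6 positive controls. The sources used here do not say whether reference genes were also used. Rows of the 14 control probes were dropped, and 0 columns were left unmapped. Each sample's value of 1 count (0.504 to 6.48 normalized counts) was read from the steps between low values, which gave net counts with a tolerance of 0.1. The 95% intervals of ratios cover counting error only. Recovered net counts were whole in 7 samples and whole plus 0.5 in 5, and no count model was run on them.

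The model was fitted with limma 3.58.1 in R 4.3.3 on log2(value + 10), for genes that reached 50 in at least 1 sample, with 4 groups, the tumor model as a block, a variance trend and Benjamini-Hochberg adjustment over all genes tested (threshold 0.05). Samples were paired because both genotypes carried the same tumor line. Deviations of the irradiated genotypes from their group means correlated at 0.72 (MC38), 0.68 (Pan02) and 0.30 (KPC). Within a tumor model ratios of (value + 10) were taken without a test.

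Genes are named where they passed the threshold, were among the 12 per direction with the largest consistent ratios, the 4 highest or lowest in a tumor model, the 8 lowest adjusted p values below a mean of 100, or the 2 largest changes of a list, or where they are reference genes or named in the paper. Some genes that these rules name are not reported here. Other genes were added after their values were seen. The gene lists hold textbook members and were described by counts and medians. Members, lists and tests were chosen with earlier results of these data known. Each result was recomputed with reference-gene or median-ratio scaling, quantile normalization, pseudocounts of 1 and 50, other filters, only irradiated samples, no block, no trend, the methods' t-test and leaving out each tumor model. Leaving out the non-irradiated KPC samples was an alternative chosen after seeing the data. The limma fit was tested on simulated data with known changes. Python 3.11.15 and matplotlib 3.10.9 made the figures.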

Additional observations from a re-analysis of the deposited data

Results flagged for a closer look

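Among the genes named in the text and the reference genes of the panel, 4 went one way in every tumor model after irradiation and the opposite way in every model without it. Over all 241 genes, 4 were higher in 3 of 3 after IR and lower in 3 of 3 without it, and 5 were the reverse. Irf7 was higher in Sirpα-/- tumors of all 3 models after IR and lower in all 3 without IR, an interaction of 1.63 on the log2 scale (adjusted p = 0.358 in limma). Alas1, a reference gene of the panel with a mean below 100, did the same, with an interaction of 1.27 (adjusted p = 0.12 in limma). Polr2a and Sdha, also reference genes, were lower after IR and higher without it, with interactions of −0.48 (adjusted p = 0.677 in limma) and −0.67 (adjusted p = 0.445 in limma). None of these differences passed the test.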

How the results depend on the processing

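Over all genes tested, 73 higher became 10 with quantile normalization, 112 without a filter, 2 with a mean of at least 50, 10 with only irradiated samples and 0 by the methods' t-test. Leaving out 1 tumor model gave 0 (without KPC) to 58 (without Pan02), and 44 without MC38. The 3 lower genes became 1 with reference genes, median ratio, quantile normalization, a pseudocount of 50, a mean of at least 50, only irradiated samples or no trend, 0 by the t-test, 5 without the non-irradiated KPC samples, an alternative chosen after seeing the data, and 0 to 1 without 1 model. Without the tumor model as a block 61 genes were higher and 0 lower, of the 241 genes 2 and 0.

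Among the 241 genes, 3 higher became 5 with only irradiated samples, 8 without the non-irradiated KPC samples, 0 by the t-test and 0 to 4 without 1 model. The 3 lower became 1 under the same 7 alternatives as above, 0 without the block or by the t-test, 5 without the non-irradiated KPC samples and 0 to 1 without 1 model. Ifna1 and Tnfrsf11a were called in 13 of 14 limma alternatives, Ctsc in 11, Mx1 in 9 and Cd81 in 3. Ifna1 and Tnfrsf11a reached the mean of 100 through the Sirpα-/- samples alone, so these counts are no separate support for them. Requiring both values to be at least 100, genes 2-fold higher were 8 in MC38, 6 in Pan02 and 5 in KPC, and 9 in KPC were lower. At 1.5-fold the counts of higher and lower genes were 42 and 45 (MC38), 29 and 33 (Pan02) and 23 and 57 (KPC). The median ratio gave 21 higher in KPC. Irf1, at −0.14 on the log2 scale, turned to 0.0145 with reference genes, 0.0244 with the median ratio and 0.0521 with quantile normalization. The cause of these changes was not tested. Of single-gene results under alternatives 464 kept their direction and side of the threshold, 48 were weaker, 9 stronger and 3 reversed. At 12292 net counts, 1 count of the Sirpα-/- KPC tumors without IR is worth 6.48 normalized counts, so differences of low genes were not detectable there.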
